A study of Homo sapiens with 8 samples.

Results

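The zinc finger genes that carry only a number in their name (ZNF followed by digits) were examined in the Ago2-bound RNA of L1236 cells, with and without inhibition of miR-155. A gene was included when a probe with its symbol was well above background in all 8 channels of the arrays, and was represented by its probe of highest mean signal. Of 374 such genes with a probe on the array, 231 met this rule, which is 231 of the 10716 named genes that met it in all. Of the other 143 genes, 55 had a best probe above background in 4 to 7 channels, 20 in 1 to 3 channels and 68 in none.

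L1236 is a human Hodgkin lymphoma cell line. The cells carried either the empty pMSCV-PIG vector (EV) or the same vector with a miR-155 sponge, an RNA with binding sites that hold the microRNA away from its targets, and GFP-positive cells were sorted in both cases, so that the controls share the vector and the sort. Total RNA (T) and RNA precipitated with an antibody against Ago2 (IP), the Argonaute protein that holds microRNAs on their target transcripts, were taken from each cell population. The 4 RNA samples were labelled with Cy3 and with Cy5 and hybridised on 4 two-colour Agilent arrays, IP and T of the same cells together. Each of the 4 groups thus holds 1 RNA sample measured with 2 dyes. Differences therefore have no replicate check and no p-value. The ± values are SDs over the 2 dye orientations for IP/T, or over the dyes for changes of T or IP, and leave out the spread between cultures and between precipitations. Hodgkin markers were present, with log2 T signals in EV-L1236 cells of 13.99 for TNFRSF8 (CD30) and 17.66 for CCL17, while the B-cell marker MS4A1 and the epithelial marker EPCAM were above background in 0 channels. The B-cell gene CD79A, the T-cell gene CD3E and the monocyte gene CD14 were each above background in all 8 channels. MIR155HG, the precursor transcript of miR-155, had a log2 T signal of 11.51 in EV-L1236 and 10.88 in sponge-L1236 cells.

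Zinc finger proteins of the C2H2 type read DNA through tandem fingers, each of which contacts a few bases. Many of the numbered genes join these fingers to a KRAB domain, which recruits the corepressor TRIM28 (KAP1) and the histone methyltransferase SETDB1 to silence chromatin, in particular at transposable elements. They arose by repeated duplication and lie in clusters, most of them on chromosome 19, and the cluster near its centromere holds ZNF91 and its close relatives, an expansion of the primate lineage. Some numbered genes have unrelated roles, for example in ribosome quality control or in the spindle.

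The microRNA that the sponge holds is shown first, since it defines the comparison between the cells. Its seed, bases 2 to 8, is in capitals (RefSeq, GRCh38.p14, chr21:25573983-25574006, plus strand).
hsa-miR-155-5p: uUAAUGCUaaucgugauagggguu

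The promoters of 4 members are shown because the genes with the highest IP/T lay together in the genome and resembled each other in sequence, whereas ZNF575 had the lowest IP/T. Each runs from 250 bases before the start of the gene to 50 after it (RefSeq, GRCh38.p14, plus strand for all 4). ZNF430 is at chr19:21020407-21020706, ZNF92 at chr7:65373605-65373904, ZNF254 at chr19:24086937-24087236 and ZNF575 at chr19:43532938-43533237. Capitals mark runs of at least 8 bases that align without a difference to ZNF430, or to ZNF92 in the case of ZNF430.
ZNF430: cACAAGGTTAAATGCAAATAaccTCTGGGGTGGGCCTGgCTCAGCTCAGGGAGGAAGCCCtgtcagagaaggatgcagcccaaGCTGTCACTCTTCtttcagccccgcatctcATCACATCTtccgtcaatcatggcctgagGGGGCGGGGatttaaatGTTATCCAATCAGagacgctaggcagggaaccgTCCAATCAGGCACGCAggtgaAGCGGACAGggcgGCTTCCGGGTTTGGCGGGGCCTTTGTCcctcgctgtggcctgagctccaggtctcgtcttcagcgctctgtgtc
ZNF92: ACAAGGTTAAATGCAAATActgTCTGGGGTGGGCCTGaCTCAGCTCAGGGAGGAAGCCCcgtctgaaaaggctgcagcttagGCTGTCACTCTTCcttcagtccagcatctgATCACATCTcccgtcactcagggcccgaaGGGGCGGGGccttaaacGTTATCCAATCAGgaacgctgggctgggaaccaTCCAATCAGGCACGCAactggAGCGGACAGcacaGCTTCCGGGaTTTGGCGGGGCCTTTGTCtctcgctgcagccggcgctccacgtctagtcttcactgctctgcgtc
ZNF254: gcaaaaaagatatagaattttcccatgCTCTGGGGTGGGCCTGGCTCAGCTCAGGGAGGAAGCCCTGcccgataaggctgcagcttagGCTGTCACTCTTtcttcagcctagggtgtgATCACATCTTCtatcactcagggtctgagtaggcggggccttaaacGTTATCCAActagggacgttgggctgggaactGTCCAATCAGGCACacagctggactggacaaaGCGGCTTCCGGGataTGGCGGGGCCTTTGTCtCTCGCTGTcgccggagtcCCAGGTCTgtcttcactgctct
ZNF575: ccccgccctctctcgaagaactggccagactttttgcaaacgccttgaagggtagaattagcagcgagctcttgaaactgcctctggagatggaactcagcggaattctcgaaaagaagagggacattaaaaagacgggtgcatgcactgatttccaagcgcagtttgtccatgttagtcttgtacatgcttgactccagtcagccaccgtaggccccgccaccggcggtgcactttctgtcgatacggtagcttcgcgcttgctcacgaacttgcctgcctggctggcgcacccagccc

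The ZNF430 and ZNF92 promoters, on different chromosomes, were identical at 84.7% of aligned positions, and those of ZNF430 and ZNF254 at 77.6%. ZNF575 matched ZNF430 at 49.4%, with no run of at least 8 identical bases in their alignment. The longest string held by all 3 of ZNF430, ZNF92 and ZNF254 was CTCAGCTCAGGGAGGAAGCCC (21 bases, searched on both strands). It was present in 8 of 27305 promoters of the table (0.0293%). Besides these 3 genes they were the members ZNF138 and ZNF493, and ZNF486, ZNF208 and LOC100128885, which were not members. The string was chosen from these sequences, and its presence is a description of the letters, not of a binding site.

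The numbered zinc finger genes were spread more widely between the Ago2 IP and total RNA than the other genes. In EV-L1236 cells the median log2 IP/T of the 231 genes was 0.18 (0.23 in the array with Cy5-labelled IP and 0.26 in the array with Cy3-labelled IP), with an SD over genes of 1.67 and a range from -3.48 (ZNF575) to 5.20 (ZNF254). The other 10485 named genes had a median of -0.23 and an SD over genes of 1.13. The upper quartile lay at 1.39 in the zinc finger genes and at 0.57 in the other genes. With 1 sample per group, neither difference was tested.

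An IP/T ratio of at least 2, the definition of Ago2 enrichment in the study, was found for 75 of the 231 genes in EV-L1236 cells (32.5%), against 16.7% of all named genes. In sponge-L1236 cells it was again 75 genes (32.5%), against 16.1%, and 70 genes were enriched in both. The 5 genes enriched in EV-L1236 cells alone and the 5 enriched in sponge-L1236 cells alone had EV values between 0.85 (ZNF77) and 1.21 (ZNF569), and the largest step among them was that of ZNF569, from 1.21 to 0.49. The opposite pattern, T/IP of at least 2, was found for 29 genes in EV-L1236 cells (12.6%, against 20.1% of all named genes) and for 30 in sponge-L1236 cells (13.0%, against 19.3%). It was shared by 25 genes. At 8-fold or more in EV-L1236 cells the zinc finger genes made up 27 of 163 genes, which is 11.7% of the zinc finger genes against 1.52% of all named genes. They were 10 of the 20 genes with the highest IP/T. With normexp background correction, which keeps signals positive, and quantile normalisation the number of enriched genes was 47 in EV-L1236 cells (20.3%, against 10.5% of all named genes) and 45 in sponge-L1236 cells (19.5%, against 9.66%).

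**Figure D1:**
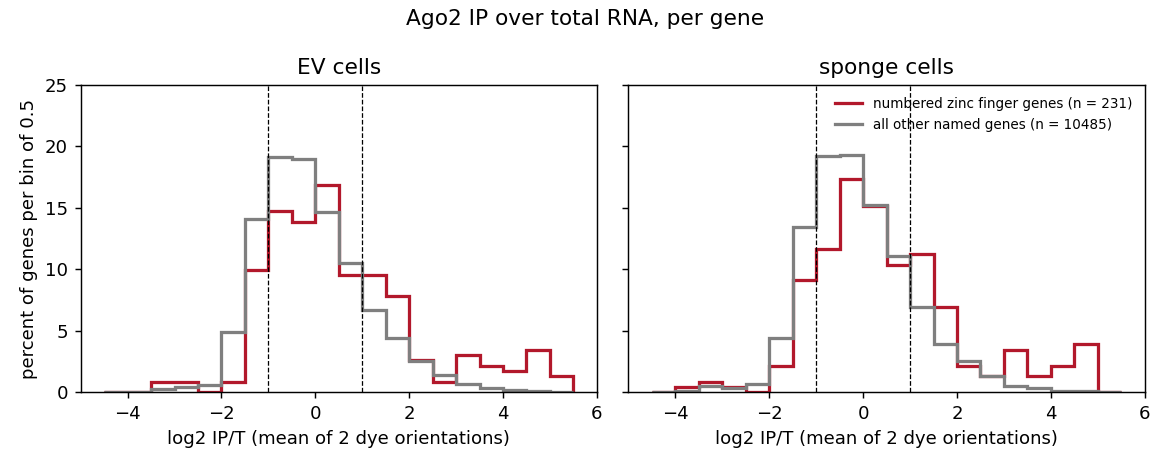
Percent of genes in bins of log2 IP/T, in EV-L1236 cells (left) and sponge-L1236 cells (right), for the 231 numbered zinc finger genes (red) and the 10485 other named genes (grey). Dashed lines mark IP/T and T/IP of 2, and the zinc finger genes show a second mode above a log2 value of 3 that the other genes do not show.

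The order of the genes was nearly the same in each array. Across the 231 genes the 2 dye orientations correlated with r = 0.98 in EV-L1236 cells and r = 0.97 in sponge-L1236 cells, and EV and sponge-L1236 cells correlated with r = 0.99. These are correlations across genes on shared arrays and probes, and genes are not independent replicates. The median SD over orientations of a single gene was 0.14 in EV-L1236 cells and 0.18 in sponge-L1236 cells. It covers labelling and hybridisation of the same RNA only, so the error of a gene between cultures or precipitations is not known.

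ZNF254 and ZNF430, KRAB-type genes of the chromosome 19 cluster, had the highest values. The log2 signals of ZNF254 in EV-L1236 cells were 12.67 (Cy3) and 12.73 (Cy5) in T and 17.87 and 17.94 in IP. In sponge-L1236 cells its signals were 12.80 and 12.86 in T and 17.69 and 17.82 in IP. All IP signals thus lay far above all T signals in both cell populations, and log2 IP/T was 5.20 ± 0.09 in EV-L1236 cells (36.8-fold) and 4.92 ± 0.13 in sponge-L1236 cells. For ZNF430 the signals in EV-L1236 cells were 12.20 and 12.12 in T and 17.25 and 17.34 in IP, and in sponge-L1236 cells 12.28 and 12.13 in T and 16.98 and 17.11 in IP. Its log2 IP/T was 5.13 ± 0.01 and 4.84 ± 0.02.

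The next 6 genes were ZNF92 (5.04 ± 0.17 in EV-L1236 cells), ZNF680 (4.98 ± 0.01), ZNF681 (4.95 ± 0.11), ZNF100 (4.94 ± 0.06), ZNF429 (4.90 ± 0.02) and ZNF493 (4.75 ± 0.08). Most neighbours in this order differed by less than their SD over orientations, so the exact ranks carry little weight. In sponge-L1236 cells the 8 genes ranged from 4.54 (ZNF493) to 4.92 (ZNF254). All 8 were lower in sponge-L1236 cells than in EV-L1236 cells. They were picked for their high EV-L1236 values, so a part of this can follow from the choice, and it was not tested.

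At the other end, ZNF575 gave log2 signals of 14.39 and 14.82 in T and 11.13 and 11.11 in IP in EV-L1236 cells. In sponge-L1236 cells it gave 14.34 and 15.26 in T and 11.18 and 10.99 in IP. Its T signals were above its IP signals in every array, with a log2 IP/T of -3.48 ± 0.30 in EV-L1236 cells and -3.72 ± 0.52 in sponge-L1236 cells, an 11.2-fold lower IP in EV-L1236 cells. A second probe for ZNF575, above background in all 8 channels, gave only -0.83 ± 0.33 in EV-L1236 cells and -1.10 ± 0.02 in sponge-L1236 cells. The extreme value of ZNF575 thus rests on 1 probe. ZNF205 followed with -3.13 ± 0.33 and ZNF467 with -2.96 ± 0.36 in EV-L1236 cells. A second probe for ZNF467, above background in 7 channels, gave -0.49 ± 0.02 in EV-L1236 cells. ZNF784 (-2.51 ± 0.25), ZNF607 (-1.81 ± 0.10) and ZNF777 (-1.55 ± 0.05) came next. ZNF341, an activator of STAT3 transcription, had -1.41 ± 0.39, and ZNF653 had -1.41 ± 0.17. Dye had a larger part in ZNF205, whose T signal in sponge-L1236 cells was 10.39 in Cy3 and 12.58 in Cy5. Of the 231 genes, 6 had T signals in sponge-L1236 cells that differed by more than 1 log2 unit between the dyes, against 1 in T of EV-L1236 cells and 0 in both IP samples. T of sponge-L1236 cells in Cy5 was also the channel with the fewest spots above background, at 54.1%, while the other channels had 61.0% to 65.7%, and the part of this in the differences was not tested.

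**Figure D2:**
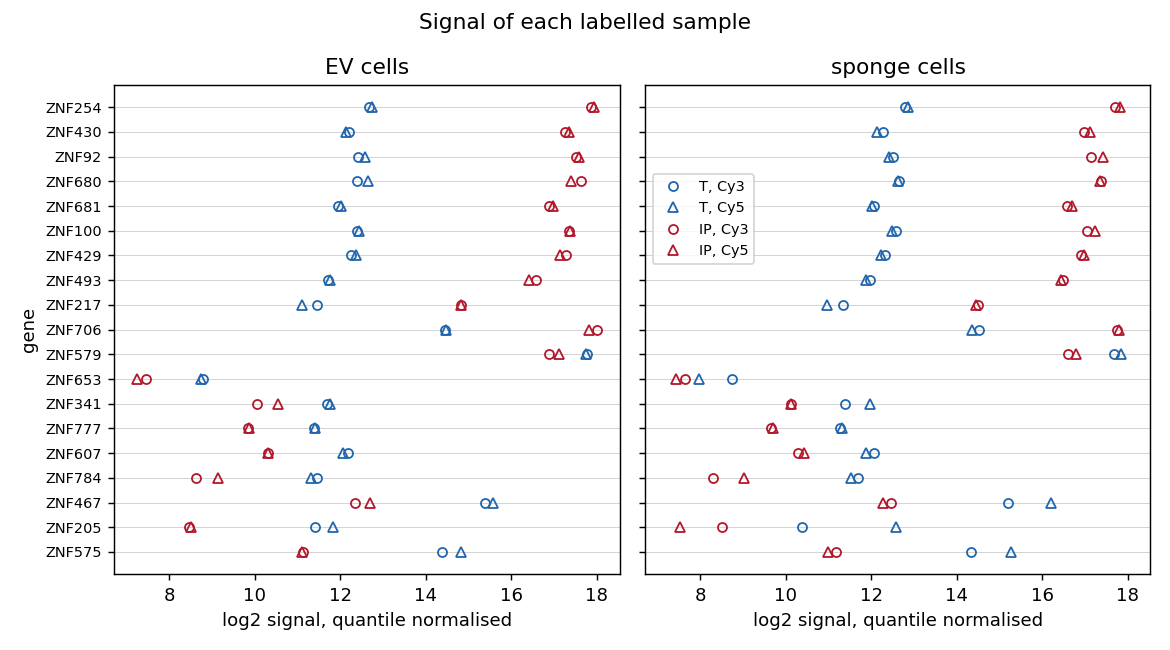
Log2 signal of each labelled sample (blue, T; red, IP; circles, Cy3; triangles, Cy5) in EV-L1236 cells (left) and sponge-L1236 cells (right) for the 8 genes with the highest and the 8 with the lowest IP/T in EV-L1236 cells, with ZNF217, ZNF706 and ZNF579 between them. For ZNF254 the IP signals lie between 17.69 and 17.94 and the T signals between 12.67 and 12.86, and for ZNF575 the order is inverted.

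The genes with the highest IP/T were neighbours. Members were grouped into runs, in which at most 2 other protein-coding genes lie between consecutive zinc finger genes in the RefSeq gene order, and the 14 runs with at least 4 members held 99 of the 231 genes. The run from ZNF101 to ZNF254 on chromosome 19 holds 37 numbered zinc finger genes, of which 19 were members. Their median log2 IP/T was 4.49 in EV-L1236 cells and 4.25 in sponge-L1236 cells. In EV-L1236 cells 17 of these 19 genes reached an IP/T of at least 8, and the exceptions were ZNF101 (-0.93 ± 0.04) and ZNF14 (0.82 ± 0.25), the first members of the run in gene order. With no other gene allowed between neighbours, the core from ZNF737 to ZNF681 had 15 members, all with an IP/T of at least 8, a median of 4.62 and a range from 3.05 (ZNF257) to 5.13 (ZNF430).

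ZNF91, the repressor of SVA retrotransposons that gives this family its name, had log2 signals of 10.22 and 10.27 in T and 13.79 and 13.86 in IP in EV-L1236 cells. In sponge-L1236 cells the signals were 10.24 and 10.16 in T and 13.50 and 13.64 in IP. This put it at 3.59 ± 0.08 and 3.37 ± 0.04 on the log2 IP/T scale, in the lower part of the run. ZNF85 (4.29 ± 0.07), ZNF43 (3.90 ± 0.14) and ZNF253 (3.84 ± 0.05), further genes of the run, lay between it and the top.

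A second run with high values lay on chromosome 7, from ZNF722 to ZNF92. All 5 of its members were enriched in both cell populations, with log2 IP/T medians of 3.35 in EV-L1236 cells and 3.00 in sponge-L1236 cells. ZNF92 and ZNF680 were at the top, followed by ZNF273 (3.35 ± 0.20), ZNF107 (2.44 ± 0.31) and ZNF138 (2.02 ± 0.20).

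The remaining 12 runs had medians between -1.27 and 0.98 in EV-L1236 cells. The highest of them was the run from ZNF627 to ZNF791 on chromosome 19, in which 4 of 8 members were enriched. The run from ZNF577 to ZNF331, also on chromosome 19, had a median of 0.56 and 5 of 10 enriched members, among them ZNF665 (3.10 ± 0.07) and ZNF320 (1.67 ± 0.05). A second probe for ZNF665, above background in 7 channels, had the opposite sign, at -1.35 ± 1.09 in EV-L1236 and -1.45 ± 1.30 in sponge-L1236 cells. The enrichment of ZNF665 thus rests on 1 probe. The largest of the other runs, from ZNF264 to ZNF8, had 15 members with a median of 0.097. The lowest was the run from ZNF579 to ZNF580, with a median of -1.27 and 3 of 5 members at a T/IP of at least 2. Chromosome 19 as such did not mark the enriched genes: outside the run from ZNF101 to ZNF254 its 78 members had a median of 0.13, as did the 134 members on other chromosomes (0.13).

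**Figure D3:**
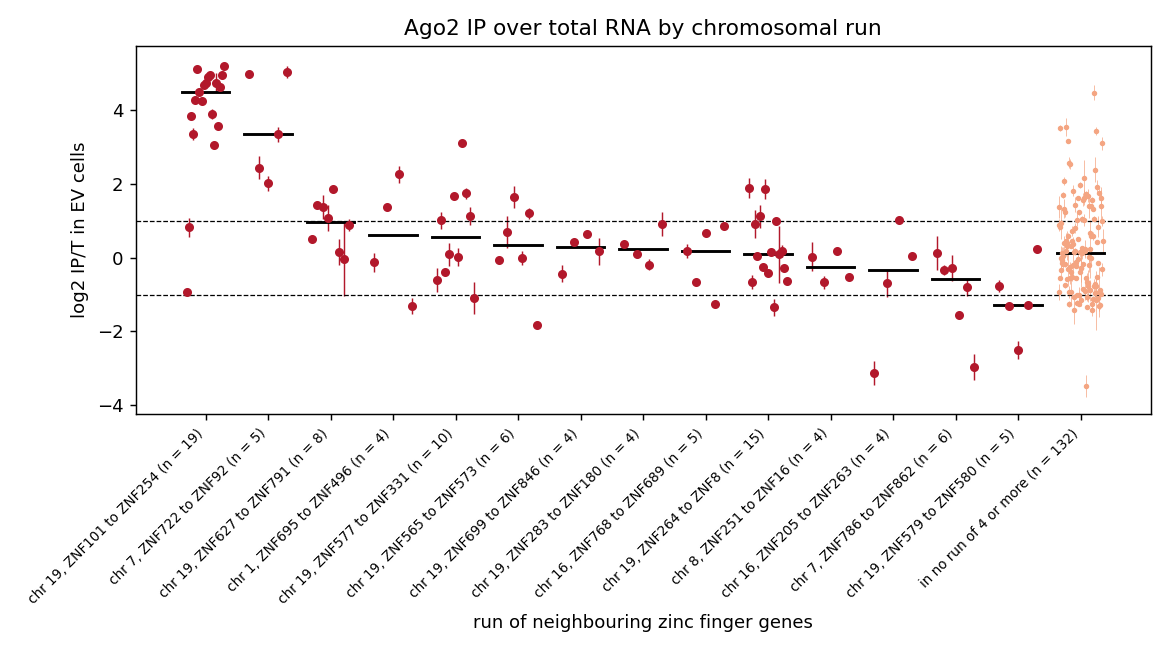
Log2 IP/T in EV-L1236 cells of the members of each run of neighbouring zinc finger genes, in gene order within a run, and of the 132 members in no such run. Points are genes, error bars the SD over 2 dye orientations, black lines the medians and dashed lines IP/T and T/IP of 2, and the runs from ZNF101 to ZNF254 and from ZNF722 to ZNF92 stand above the rest.

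Without the run from ZNF101 to ZNF254, the EV-L1236 values of the other 212 members had a median of 0.13 and an SD over genes of 1.33, against -0.23 and 1.13 in the other named genes. Of these 212, 58 were enriched (27.4%) and 10 had an IP/T of at least 8. Besides 3 genes of the chromosome 7 run and ZNF665, these 10 were ZNF678 (4.48 ± 0.20), ZNF217 (3.54 ± 0.24), ZNF141 (3.52 ± 0.09), ZNF706 (3.44 ± 0.11), ZNF267 (3.17 ± 0.03) and ZNF827 (3.10 ± 0.17). ZNF217, an oncogene on chromosome 20 that is amplified in breast cancer, is not a gene of the primate-expanded clusters. Its log2 signals were 11.45 and 11.11 in T and 14.82 in both dyes of IP in EV-L1236 cells, and 11.35 and 10.96 in T and 14.50 and 14.46 in IP in sponge-L1236 cells. The IP signals exceeded the T signals in each array.

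The members of the enriched runs also resembled each other in their promoters, which the selection did not use. RefSeq promoters were at hand for 199 of the 231 genes. Among the 17 of the ZNF101 to ZNF254 run the median pairwise identity was 70.1% over 136 pairs, and between this run and the chromosome 7 run it was 75.8% over 85 pairs, against 50.4% over 15576 pairs of other members. The promoters of the 17 genes held a median of 10 CpG dinucleotides, those of the 5 chromosome 7 genes 13, and those of the other 177 members 24. The other named genes had a median of 26 over 8557 promoters. The string of 21 bases given above was present in 3 of the 17 promoters of the chromosome 19 run. It was in 2 of the 5 of the chromosome 7 run and in 0 of the other 177, so most promoters of the enriched runs lacked it. These counts include ZNF430, ZNF254 and ZNF92, from which the string was taken. Apart from them, only ZNF493 of the chromosome 19 run and ZNF138 of the chromosome 7 run held it among the members. Pairs of promoters share genes, so the pairs are not independent.

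A probe for 1 member can also bind the transcripts of close relatives. Promoter identity does not measure this, because the promoter sequences lie mostly before the start of the gene. Probe sequences were not analysed here, and the part of such binding in the values was not tested. Further probes of the same gene give a limited view. Among the 56 members with more than 1 probe above background in all channels, the brightest and the dimmest probe differed by a median of 0.45 in log2 IP/T, and by more than 1 for 13 genes. For the 10 such genes of the 2 enriched runs, the dimmest probe had an IP/T of at least 2 in 10 and of at least 8 in 9, with a median of 3.96 against 4.59 for the brightest. For ZNF254 the second probe gave 4.20 ± 0.30 and for ZNF92 it gave 3.95 ± 0.20. For ZNF430 and ZNF100 the second probe was above background in 7 channels and gave 3.45 ± 0.26 and 2.37 ± 0.08, lower than the values above but still enriched. Probes that saw no signal were outside this comparison. ZNF257, ZNF99 and ZNF708, all of the chromosome 19 run, each had a further probe above background in 0 channels. These probes gave log2 IP signals in EV-L1236 cells of 3.57, 4.28 and 3.64. The probes used gave 15.73, 14.72 and 17.08, and the cause of the disagreement was not tested.

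Of a list of members with known roles, ZNF91 and ZNF217 are described above. ZNF143, which activates snRNA and other promoters, was at -0.33 ± 0.15 on the log2 IP/T scale in EV-L1236 cells. ZNF148, a binder of GC-rich promoters, had -0.02 ± 0.33. ZNF207 (BuGZ), a spindle and kinetochore protein, had -0.75 ± 0.07, and ZNF598, the ubiquitin ligase of collided ribosomes, had -0.69 ± 0.07. ZNF274, a KRAB protein that recruits SETDB1 to the zinc finger genes themselves, was at 0.18 ± 0.16. None of these reached 2-fold in either direction. The brightest probes among the members were those of ZNF254, ZNF579 (-0.77 ± 0.16) and ZNF706 (3.44 ± 0.11), so the brightest members lay on both sides.

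Related gene families are given beside the numbered genes, without a test. The 27 ZBTB genes, which pair zinc fingers with a BTB domain, gave a log2 IP/T median of 0.88 and an SD over genes of 1.05 in EV-L1236 cells. Of these, 11 were enriched (40.7%, against 32.5% of the numbered genes and 16.7% of all named genes). The 17 ZSCAN and ZKSCAN genes, with a SCAN domain, had a median of 0.070, an SD over genes of 1.03 and 0 enriched genes. The 11 ZFP genes had a median of 0.18 and 3 enriched genes (27.3%). Their SD over genes was 1.56, near the 1.67 of the numbered genes, with a maximum of 4.71 and 1 gene at an IP/T of at least 8 (9.09%). Among 15 corepressor genes on which KRAB proteins rely, TRIM28 itself was at -1.19 ± 0.04 and SETDB1 at 0.50 ± 0.06, and CBX1 (1.77 ± 0.12), a heterochromatin protein, was the only enriched gene. TNRC6A, whose protein binds Argonaute in silencing, was at 3.29 ± 0.43, and AGO2 at 0.32 ± 0.26.

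The rule on detection left out some genes that were low in T. Just inside it were ZNF630, with log2 IP/T values of 0.24 ± 0.80 in EV-L1236 cells and -0.14 ± 0.35 in sponge-L1236 cells, and ZNF408, with -1.23 ± 0.07 and -1.23 ± 0.47. Just outside, with 7 of 8 channels, were ZNF367, with 4.00 ± 0.53 and 3.93 ± 0.81, and ZNF676, with 4.06 ± 0.03 and 4.08 ± 0.68. ZNF630 and ZNF408 were picked as the dimmest members, and ZNF367 and ZNF676 as the brightest of 29 genes with a best probe in 7 channels. The log2 T signals of ZNF367 and ZNF676 in EV-L1236 cells were 7.23 and 6.80, so their brightness came from IP. Their high IP/T thus follows in part from this choice and does not describe the other genes left out. With at least 4 of 8 channels required, 286 genes were included, of which 100 were enriched in EV-L1236 cells (35.0%, against 18.5% of all named genes that met this rule).

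Between EV and sponge cells the numbered zinc finger genes differed little. In sponge-L1236 cells the SD over genes was 1.62 and the median 0.22, against 1.67 and 0.18 in EV-L1236 cells. The median change (sponge minus EV, log2) was -0.097 in IP (-0.11 in Cy3 and -0.078 in Cy5), -0.035 in T (-0.022 and -0.076) and -0.062 in IP/T. The other named genes had medians of 0.0073 in IP and -0.0033 in T. IP was lower in sponge-L1236 cells in both dyes for 138 of the 231 genes (59.7%), against 36.1% of all named genes, and T for 86 genes (37.2%), against 30.6%. The median change in T was 0.0052 with normexp background correction followed by loess and Aquantile normalisation, and -0.026 with normexp and quantile normalisation. Fewer bound transcripts and a lower recovery in the precipitation cannot be told apart in these samples.

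The decrease in IP went with IP/T. Among members with a log2 IP/T below -1 in EV-L1236 cells the median change in IP was -0.019 (29 genes), between 1 and 2 it was -0.18 (40 genes), and above 3 it was -0.21 (27 genes), where 26 of 27 genes were lower. The other named genes showed the same order, from 0.084 below -1 to -0.18 above 3, where 115 of 136 genes were lower (84.6%). Enriched genes thus had a lower IP signal in sponge-L1236 cells whether or not they were zinc finger genes, and since EV IP enters both measures a part of this order is shared by construction. In the run from ZNF101 to ZNF254 the median change was -0.21 in IP and 0.068 in T. In IP 18 of 19 genes of the run were lower, against 5084 of the 10485 other named genes.

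**Figure D4:**
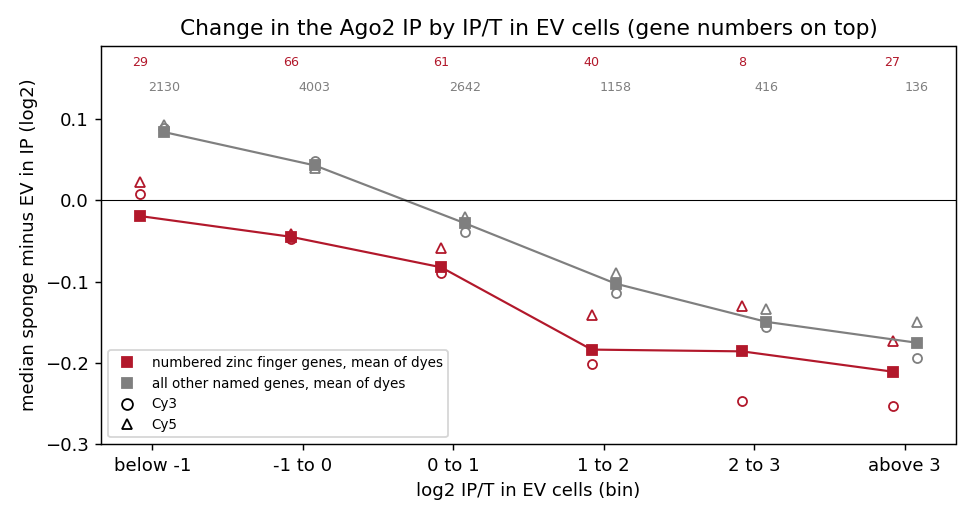
Median change in the IP signal (sponge minus EV, log2) by bins of log2 IP/T in EV-L1236 cells, for the numbered zinc finger genes (red) and the other named genes (grey). Squares are means of the dyes, circles Cy3 and triangles Cy5, with the number of genes in each bin on top, and both sets fall from left to right, the zinc finger genes from -0.019 to -0.21.

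Changes of single genes were few. At 1.5-fold or more with the same sign in both dyes, 1 gene was lower in IP (0.433%, against 0.271% of all named genes) and 0 were higher (against 0.476%). In T, 4 genes were lower (1.73%, against 0.364%) and 2 higher (0.866%, against 0.989%). With normexp background correction 0 genes passed in any of these 4 counts. The shares of all named genes under this correction are not given, so the counts of 0 do not set the members apart. The correction also narrowed the other named genes, whose SD over genes of log2 IP/T in EV-L1236 cells was 0.84 instead of 1.13. The gene lower in IP was ZNF157, with IP signals of 9.98 and 10.22 in EV-L1236 cells and 9.24 and 9.44 in sponge-L1236 cells. Both sponge values lay below both EV values, and the change was -0.76 ± 0.03. T was lower as well, at 8.99 and 9.35 against 8.49 and 8.80, a change of -0.52 ± 0.03. The change in T was thus of a similar kind to that in IP, and IP/T went from 0.93 ± 0.42 to 0.70 ± 0.36.

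Changes in IP and T were ranked over members with the same sign in both dyes and a change larger than its SD over dyes. The next largest falls in IP were those of ZNF775 (-0.47 ± 0.31), ZNF776 (-0.43 ± 0.01) and ZNF180 (-0.43 ± 0.22). A second probe for ZNF775 gave 0.0056 ± 0.18, so its fall rests on 1 probe. The largest rises in IP under this limit were smaller, at 0.26 ± 0.00012 for ZNF250, 0.25 ± 0.07 for ZNF688, 0.25 ± 0.11 for ZNF326, a protein of the DBIRD complex in mRNA splicing, and 0.22 ± 0.16 for ZNF395.

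In T, ZNF175 was at 7.39 and 7.47 in EV-L1236 cells and at 6.74 and 6.75 in sponge-L1236 cells. ZNF263 was at 7.81 and 7.94 against 7.20 and 7.32. For both genes the sponge values lay below the EV values in both dyes, with changes of -0.69 ± 0.05 and -0.62 ± 0.01. ZNF77 (-0.64 ± 0.38) and ZNF180 (-0.60 ± 0.24) also passed 1.5-fold. The 2 genes with a higher T were ZNF703, an oncogene of luminal breast cancer (0.62 ± 0.11), and ZNF490 (1.22 ± 1.49), for which the dyes gave 5.84 and 7.15 in EV-L1236 cells and 8.12 and 7.32 in sponge-L1236 cells. The value of ZNF490 is smaller than its SD over dyes. ZNF346, a binder of double-stranded RNA, had 0.46 ± 0.14 in T by its brightest probe, but -0.35 ± 0.19 and -0.30 ± 0.27 by its other probes. ZNF630 (0.33 ± 0.15) and ZNF436 (0.28 ± 0.03) were, with ZNF703 and ZNF346, the 4 largest rises in T under this limit.

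**Figure D5:**
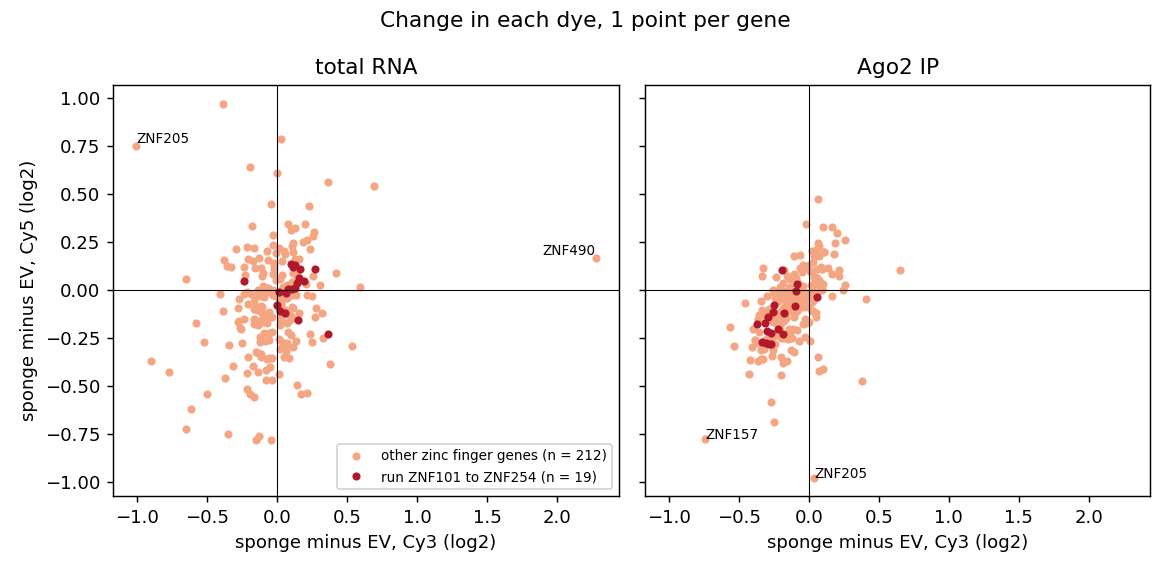
Change (sponge minus EV, log2) of each of the 231 genes in Cy3 (horizontal) and Cy5 (vertical), in T (left) and IP (right), with the 19 members of the run from ZNF101 to ZNF254 in dark red. The dyes correlated with r = 0.18 in T and r = 0.51 in IP across genes. Of the 19 genes of the run, 18 had a lower mean in IP, against 5084 of the 10485 other named genes.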

How the data were processed

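The deposited scanner files hold spot intensity values that the authors extracted with Agilent Feature Extraction (version 10.7.3.1 in the file headers, 10.5.1.1 in the labels), which subtracts background and corrects for dye. The 8 files are 4 arrays, each deposited under both of its samples, and only the dye belonging to a sample was read from its file. The deposited series table holds the authors' quantile-normalised log2 values for filtered probes, and served as an alternative. Control and outlier spots were left out, spots of a probe were averaged and log2 processed signals were quantile normalised over 8 channels, following the study. A change was counted at 1.5-fold with the same sign in both dyes. Symbols came from matching the accession of a probe to RefSeq genes (GRCh38.p14), used for names and gene order only since the array annotation follows another build. Of 41000 probes, 60 had no value in some channel, and 23922 of the rest were named. The calculations were tested on simulated channels. limma 3.58.1 in R 4.3.3, pandas 2.3.3 and Biopython 1.88 (global alignment) were used. The genes named in the text are the 8 highest and 8 lowest in IP/T, the 4 largest rises and falls in IP and in T (among members with the same sign in both dyes and a change larger than its SD over dyes), the 3 brightest and a list of known roles, with the members of the enriched runs, other members of high IP/T and ZNF490 and ZNF569 named after their values were seen. The members, gene lists and the rule for runs were chosen with earlier results of these data known. 1 of the marker genes is not reported here.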

Additional observations from a re-analysis of the deposited data

Results flagged for a closer look

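Some named genes had T and IP signals that changed in opposite directions between the cell populations in both dyes. The difference between the fractions was not tested, and such opposite signs were found for 33 of the 231 zinc finger genes (14.3%) and for 14.0% of all named genes. T was higher and IP lower in sponge-L1236 cells for ZNF254 (0.13 and -0.15), ZNF430 (0.042 and -0.25), ZNF681 (0.054 and -0.29), ZNF100 (0.12 and -0.22), ZNF784 (0.22 and -0.22) and ZNF346 (0.46 and -0.031). T was lower and IP higher for ZNF653 (-0.41 and 0.18) and ZNF274 (-0.11 and 0.084). For ZNF346 the log2 IP/T itself changed sign in both orientations, from 0.17 in EV-L1236 cells to -0.32 in sponge-L1236 cells, but its 2 other probes had positive values in both.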

How the results depend on the processing

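Under every alternative that was run, the median log2 IP/T of the run from ZNF101 to ZNF254 stayed between 4.07 and 4.62 in EV-L1236 cells and the median change in IP stayed negative. With normexp, a background correction that keeps signals positive, followed by loess within and Aquantile between arrays, the SD over genes of log2 IP/T was 1.40 in EV-L1236 cells and 1.34 in sponge-L1236 cells, the medians 0.23 and 0.15, and the run median 4.07. 6 genes had a T/IP of at least 2 in EV-L1236 cells and 9 in sponge-L1236 cells, 46 were enriched in sponge-L1236 cells, and 0 passed 1.5-fold higher or lower in T or lower in IP. The median change was 0.0052 in T (reversed), -0.071 in IP and -0.082 in IP/T. With normexp and quantile normalisation the SDs were 1.43 and 1.37, the medians 0.10 and 0.091, the run median 4.11, the counts of enriched genes 47 and 45, those of T/IP of at least 2 were 9 and 13, the 1.5-fold counts in T (higher and lower) and lower in IP were 0, and the median changes in IP and IP/T were -0.058 and -0.043. The other named genes had SDs in EV-L1236 cells of 0.84 under both. Shares of all named genes are not given beside the counts of this section, so these counts describe the members only and do not set them apart.

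Scaling by the 75th percentile gave a sponge median of 0.25, a run median of 4.44, 2 genes lower in T and a median change in IP of -0.074. The authors' values and the filter on dye consistency each left 224 genes, a sponge median of 0.24 and 1 gene higher in T. Detection in at least 4 channels gave medians of 0.41 and 0.46, an SD of 1.62 in EV-L1236 cells, 12 genes lower in T, 3 lower in IP and a change in IP/T of -0.038. Detection in at least 1 channel gave 306 genes, medians of 0.40 and 0.41, an SD of 1.58, 6 genes higher and 15 lower in T, 2 higher and 10 lower in IP, and -0.040 in IP/T. The mean over probes gave medians of 0.21 and 0.31, an SD of 1.64 and a run median of 4.26. Chosen after seeing the data, the dimmest probe gave a sponge median of 0.29, an SD of 1.64, -0.038 in IP/T and a run median of 4.16. Without the run, also chosen afterwards, the medians were 0.13 and 0.092, the SDs 1.33 and 1.31, 10 genes had an IP/T of at least 8, and the change in IP/T was -0.039. With no gene between neighbours the run median was 4.62.

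Leaving out 1 labelled sample, 1 dye or 1 orientation moved the EV median between 0.17 and 0.28, the sponge median between 0.21 and 0.26, the run median between 4.43 and 4.54, the change in T between -0.076 and -0.020 and that in IP/T between -0.072 and -0.028. The 1.5-fold counts, which then rest on the remaining dye, were 0 to 11 higher and 4 to 9 lower in T and 0 to 1 higher and 1 to 3 lower in IP. T of sponge-L1236 cells in Cy3, when left out, gave the 11 and the 9. T was lower in 121 to 147 genes and IP in 156 to 171. Among the named genes, ZNF346 turned in T to -0.062 with loess, -0.11 with normexp and quantile normalisation, -0.063 with the mean over probes and -0.30 with the dimmest probe. ZNF775 turned to 0.0056 in IP with the dimmest probe, and ZNF630 in T lay between -0.093 (without Cy5 of sponge T) and 0.76 (without Cy3). The causes were not tested. Of the other values of named genes, 567 moved within their SD over dyes and 137 by more. Naming by the scanner files' gene names was not run, nor were groups by KRAB domain or finger number, because the columns and protein sequences were not used here. No paired analysis was possible because each group holds 1 RNA sample and the replicate numbers only stand for the dyes. The number of arrays limits the precision.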
